A study of Mus musculus with 72 samples.

Results

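Lung RNA of mice injected with the CMV-GE11-siRE circuit was compared with lung RNA of mice injected with the CMV-siRE circuit. The comparison takes the lung libraries labelled with these circuits, 4 of each. These are 8 of the 72 libraries of the series and 8 of the 12 lung libraries. The other 4 lung libraries, from mice given CMV-scrR, entered the limma fits for a shared estimate of the spread. They are shown as the control, but the main differences are not measured against them. All animals were EGFR DEL19 transgenic mice, which carry a mutant epidermal growth factor receptor that signals without its ligand, and all had received doxycycline for 25 days until micro-CT showed lung tumours. Each circuit was injected intravenously at 10 mg/kg, 7 times at intervals of 2 days, and tissue was taken on day 14. CMV-scrR carries a scrambled RNA, CMV-siRE a small interfering RNA against EGFR, and CMV-GE11-siRE the same small interfering RNA together with GE11, a peptide that binds EGFR. For the promoter that drives the transgene, and for the sex and age of the mice, the labels give no entry. Whether the 4 libraries of a group are 4 animals is not stated, and the p-values speak of the spread among the libraries, which may be technical.

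In this approach the injected DNA is taken up mainly by the liver, whose cells transcribe the small RNA and release it in extracellular vesicles that travel in the blood. GE11 is placed on the vesicle surface to direct them to cells that carry EGFR, so the comparison asks how lung expression differs when the peptide is added to the same siRNA. Whole lung holds alveolar and airway epithelium, endothelium, stroma, resident macrophages and the blood left in its vessels, including red cells, which keep some haemoglobin mRNA when they are young, and neutrophils, which wait in the lung capillaries in large numbers. The acute phase is the change in secreted proteins, such as serum amyloids, that follows inflammation.

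The values are deposited signal values, read here as gene-level abundances scaled between libraries, and are called normalized values below. Their column totals lay between 19.5 M and 20.98 M in the 12 lung libraries (M is the prefix mega), with 19605 to 20241 genes above 0 in each. Markers of lung were at high levels in all 8 libraries. Sftpc, the surfactant protein of alveolar type 2 cells, was at 207813 to 321330.0 in CMV-siRE libraries and 191896 to 331696 in CMV-GE11-siRE libraries. Scgb1a1 of airway club cells was at 144011 to 272451 and 153881 to 206837, and Ager of alveolar type 1 cells at 25622 to 38234 and 31761 to 39584. Single libraries stood apart in other markers. CMV-GE11-siRE replicate 3 held genes of heart muscle, with the myosin gene Myh6 at 6177 against at most 18.4 in the other 7 libraries compared, and CMV-GE11-siRE replicate 4 lay with the CMV-siRE libraries for some genes of inflammation.

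Egfr, the mouse gene for the receptor that the siRNA is directed at, was at 575, 401, 432 and 617 in the 4 CMV-siRE libraries and 594, 637, 470.4 and 583 in the 4 CMV-GE11-siRE libraries. It was at 623, 647, 746 and 551 with CMV-scrR. The libraries of the groups overlapped, and the difference, CMV-GE11-siRE minus CMV-siRE, was 0.19 ± 0.15 (log2, SE, n = 4 a group), with a 95% interval from -0.14 to 0.51. The two-sided exact permutation p was 0.257, where 4 libraries against 4 can reach 0.0286 at the lowest, so a difference in mouse Egfr was not detectable here. The human transgene is not analysed here for lung.

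Of 16165 lung genes tested, 10 (0.0619%) differed between CMV-GE11-siRE and CMV-siRE in limma at an adjusted p under 0.05. With CMV-GE11-siRE, 7 were higher (0.0433% of genes tested) and 3 were lower (0.0186%). Among the higher genes were the haemoglobin genes Hbb-bt, Hbb-bs, Hba-a1 and Hba-a2, the haem synthesis gene Alas2, and Apln. Among the lower genes were Saa3 and Serpina3n. Genes that passed were named only where the libraries of the 2 circuits did not overlap. The lack of overlap given for them below therefore follows from that rule and is not a separate result. At an unadjusted p under 0.05, 1612 genes (9.97%) differed, 835 higher (5.17%) and 777 lower (4.81%). All 4 CMV-GE11-siRE libraries lay above all 4 CMV-siRE libraries in 389 genes (2.41%) and below them in 444 genes (2.75%). The median difference over all genes tested was 0.0049. Without CMV-GE11-siRE replicate 4, 19 genes differed, among them the chemokine gene Cxcl13, and the 10 were among the 19. The lower count was 1 when any of 6 libraries was left out (CMV-scrR 2, CMV-siRE 2, 3 and 4, CMV-GE11-siRE 2 and 3).

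**Figure D1:**
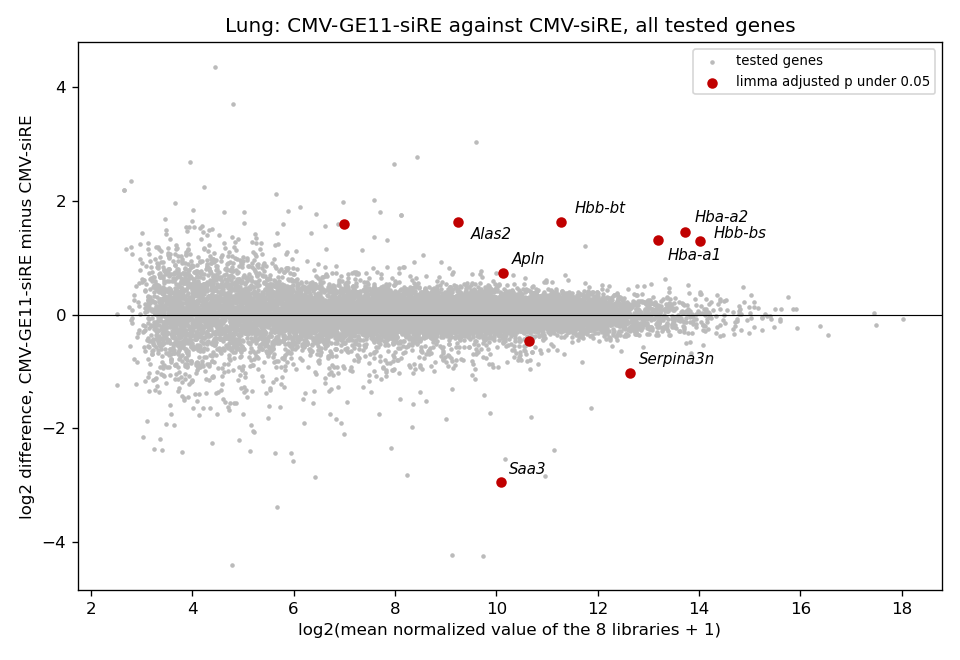
Each point is 1 of the 16165 lung genes tested. The x axis is log2 of its mean normalized value over the 8 libraries plus 1, and the y axis is the log2 difference, CMV-GE11-siRE minus CMV-siRE. Red points are the 10 genes with an adjusted p under 0.05, with 8 of them named. The globin genes, from Hbb-bs to Hbb-bt, and with them Alas2 lie between 1.30 and 1.64, and Saa3 lies at -2.95.

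Members of the list of erythroid and globin genes made up 6 of the 7 higher genes. The haemoglobin chains of the adult mouse come from the alpha cluster on chromosome 11 and the beta cluster on chromosome 7, and Alas2 on the X chromosome starts haem synthesis in red cell precursors. The promoters of 3 of these genes are shown because the genes were higher together, as 250 bases before the RefSeq start in GRCm38.p6. Capitals mark, on either strand, the word AGATAA and its relative TGATAA, bound by the red cell factor GATA1 and called GATA words here, the word CACCC, bound by KLF1 and related factors, and the word CCAAT.
Hbb-bt (chr7:103813924-103814173, minus strand): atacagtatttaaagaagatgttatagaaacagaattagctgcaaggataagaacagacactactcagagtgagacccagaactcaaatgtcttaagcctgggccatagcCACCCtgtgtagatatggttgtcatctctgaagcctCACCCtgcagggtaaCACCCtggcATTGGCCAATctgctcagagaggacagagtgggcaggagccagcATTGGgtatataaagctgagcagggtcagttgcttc
Hba-a1 (chr11:32283422-32283671, plus strand): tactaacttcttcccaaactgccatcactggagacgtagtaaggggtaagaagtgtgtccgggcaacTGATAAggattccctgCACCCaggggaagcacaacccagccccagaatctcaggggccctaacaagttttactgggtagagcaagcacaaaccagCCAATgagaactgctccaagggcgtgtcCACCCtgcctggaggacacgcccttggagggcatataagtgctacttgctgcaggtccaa
Alas2 (chrX:150547167-150547416, plus strand): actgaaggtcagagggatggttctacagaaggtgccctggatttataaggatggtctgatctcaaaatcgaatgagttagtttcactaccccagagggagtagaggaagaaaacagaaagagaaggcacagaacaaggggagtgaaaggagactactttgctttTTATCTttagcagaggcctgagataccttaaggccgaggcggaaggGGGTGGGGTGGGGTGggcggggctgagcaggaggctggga
The Hbb-bt window holds 3 CACCC words, 3 CCAAT words, of which 2 stand end to end on opposite strands, and none of the GATA words searched. The Hba-a1 window holds 1 GATA word, 2 CACCC words and 1 CCAAT, and the Alas2 window 1 GATA word and 3 CACCC words end to end. Over 32851 promoter windows of this length, 16.6% held a GATA word, 52% a CACCC and 33.8% a CCAAT, so a match is a description and not a site.

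Hbb-bt, a beta globin gene (chr7:103812524-103813996, GRCm38, protein coding), had normalized values of 1696, 1256, 1015 and 931 in the 4 CMV-siRE libraries and 3419, 3302, 3625 and 4608 in the 4 CMV-GE11-siRE libraries, against 4629, 4916, 5294 and 3909 with CMV-scrR. The CMV-siRE libraries lay at the bottom, and the lowest CMV-GE11-siRE library was above the highest CMV-siRE library. The difference was 1.64 ± 0.17 (log2, SE; limma adjusted p = 0.00272). Hbb-bs (chr7:103826534-103828096), the neighbouring adult beta gene, was at 13084, 9539, 8672 and 7625 in the 4 CMV-siRE libraries and 22081, 20444, 22952 and 29088 in the 4 CMV-GE11-siRE libraries. Its difference was 1.30 ± 0.17 (limma adjusted p = 0.00587), again with no overlap. The alpha genes gave 1.46 ± 0.17 for Hba-a2 (chr11:32296489-32297298) and 1.31 ± 0.16 for Hba-a1 (chr11:32283511-32284465). Hba-a2 was at 5329 to 10060.2 in CMV-siRE libraries and 16275 to 21903 in CMV-GE11-siRE libraries, and Hba-a1 at 4223 to 7234 and 11818 to 16355, so that neither overlapped between the groups. The alpha genes are near copies of each other, as are the beta genes, and counting can split their reads, so how the rise divides within a pair is uncertain. Globin genes together took 0.12% ± 0.031 of the column total with CMV-siRE (SD, n = 4), 0.304% ± 0.041 with CMV-GE11-siRE and 0.371% ± 0.045 with CMV-scrR.

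Alas2 (chrX:150547375-150570638) was at 446, 267, 263 and 224 in the 4 CMV-siRE libraries and 879, 726, 967 and 1043 in the 4 CMV-GE11-siRE libraries, against 1085, 1154, 1499 and 913 with CMV-scrR. The groups did not overlap, and the difference was 1.63 ± 0.20 (limma adjusted p = 0.00374). These 5 genes passed the threshold under each of the 17 other settings run, including each library left out in turn.

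The list of erythroid and globin genes had 14 members, of which 12 passed the filter on low values, Klf1 fell under it and Ahsp was not used. Of the 12, 6 were higher with CMV-GE11-siRE, against 0.0433% of all genes tested, none was lower, and the median difference was 1.30 against 0.0049 for all genes. This list, like the others, was chosen with earlier results of these data known. The globin genes of a pair can share reads, so the 6 are not 6 independent genes. Fech, the last enzyme of haem synthesis, had a difference of 0.30 ± 0.094 and did not pass (limma adjusted p = 0.387), although its groups did not overlap. Slc4a1, the anion exchanger of the red cell membrane, varied between libraries of a group, with 4.87, 131, 26.1 and 5.13 in the 4 CMV-siRE libraries and 89.6, 56.3, 125 and 29.4 in the 4 CMV-GE11-siRE libraries, and a difference of 1.82 ± 0.81 (limma adjusted p = 0.49). The receptors Tfrc and Epor and the factor Gata1 were at -0.25, 0.16 and 0.71 and did not pass. Bpgm, an enzyme that makes the haemoglobin ligand 2,3-bisphosphoglycerate, is outside the list and was picked after its values were seen: its difference was 0.55 ± 0.12 (limma adjusted p = 0.175), and it passed without CMV-siRE replicate 2. The summed level of the list was 20699.8 to 35196 in the CMV-siRE libraries, 55196 to 75972 with CMV-GE11-siRE and 66724 to 93857 with CMV-scrR. In bulk tissue, fewer cells of a type and less RNA per cell cannot be told apart.

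**Figure D2:**
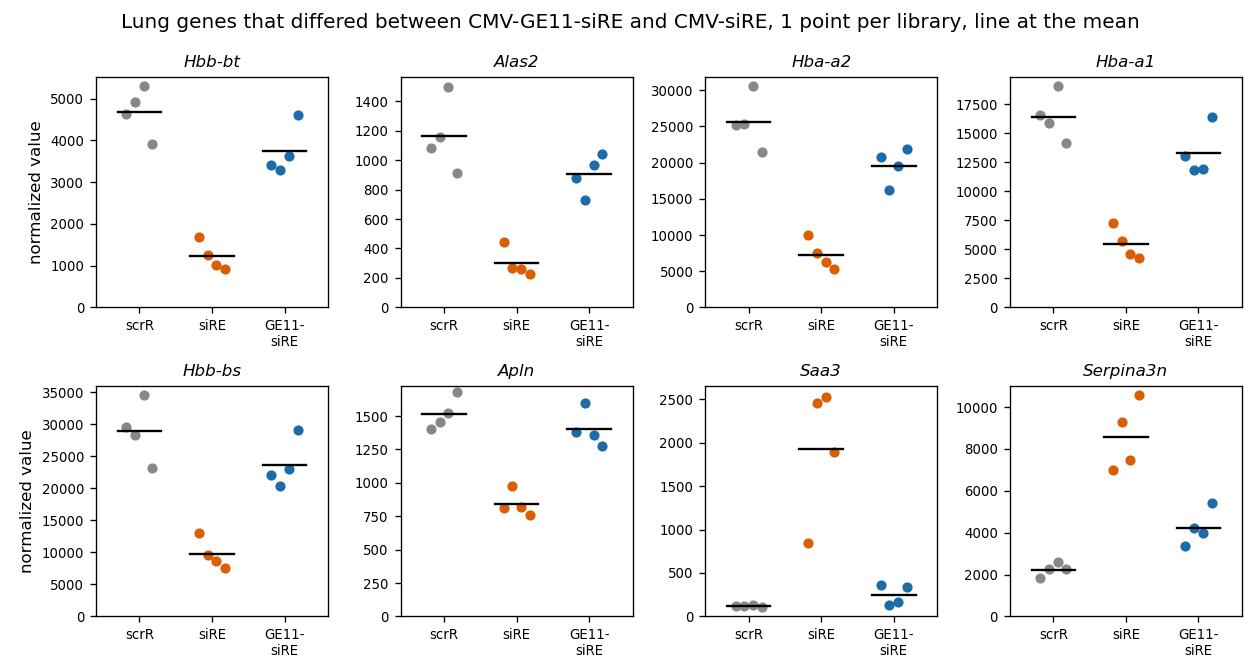
Normalized values (linear y axes that start at 0) of 8 of the 10 lung genes that differed between CMV-GE11-siRE and CMV-siRE, with 1 point per library, 4 for each circuit on the x axis, and a line at the mean. For the first 6 panels the CMV-siRE libraries lie lowest, and for the last 2 they lie highest. The genes were chosen for a lack of overlap between CMV-GE11-siRE and CMV-siRE libraries, so its absence in every panel follows from the choice.

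Apln was the other higher gene. It encodes apelin, a peptide that endothelial cells release and that acts on the receptor Aplnr. Apln (chrX:48025146-48034853) was at 812, 974, 819 and 760.0 in the 4 CMV-siRE libraries and 1381, 1600.4, 1361 and 1277 in the 4 CMV-GE11-siRE libraries, against 1401, 1454, 1525 and 1678 with CMV-scrR. The CMV-siRE libraries lay lowest and overlapped neither other group, and CMV-GE11-siRE minus CMV-siRE was 0.74 ± 0.1 (limma adjusted p = 0.00742), past the threshold under each of the 17 other settings. Aplnr itself was at 1284 to 1701 in CMV-siRE libraries and 1588 to 2823 in CMV-GE11-siRE libraries, with a difference of 0.39 ± 0.29 that did not pass (limma adjusted p = 0.693). The endothelial markers Pecam1 and Cdh5 had differences of -0.014 and 0.20, and none of the 14 endothelial genes tested passed, with a list median of 0.0085.

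Saa3 had the largest difference among the 10 genes. It encodes a serum amyloid A protein that macrophages and epithelium make locally in inflammation, whereas Saa1 and Saa2 are made mainly by the liver. Its promoter is shown as the window before the gene that was lower by the most, with the word TTNNGCAA, searched on both strands as a match to sites of C/EBP factors, in capitals.
Saa3 (chr7:46715677-46715926, minus strand): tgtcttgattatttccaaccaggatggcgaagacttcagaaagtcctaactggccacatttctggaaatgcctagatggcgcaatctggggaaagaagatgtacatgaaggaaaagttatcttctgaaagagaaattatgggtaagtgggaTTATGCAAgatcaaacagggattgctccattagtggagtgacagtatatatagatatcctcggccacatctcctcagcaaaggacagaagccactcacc
The window holds 1 such word, and 9.56% of the 32851 windows hold at least 1. It also holds 1 GATA word, which is not marked. The window of Hbb-bs holds 1 match to TTNNGCAA, and those of Hbb-bt, Hba-a1 and Alas2 hold none, so the words marked do not set the genes apart.

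Saa3 (chr7:46711998-46715700, GRCm38, protein coding) was at 843, 2454, 2529 and 1888 in the 4 CMV-siRE libraries and 361, 137, 164 and 338 in the 4 CMV-GE11-siRE libraries, against 123, 115, 130.4 and 108 with CMV-scrR. The CMV-siRE libraries lay highest, the CMV-GE11-siRE libraries between them and the control, and no library of a group overlapped another group. CMV-GE11-siRE minus CMV-siRE was -2.95 ± 0.35 (limma adjusted p = 0.00369), and it passed under each of the 17 other settings. Serpina3n (chr12:104406729-104414329), a secreted inhibitor of serine proteases, was at 7014, 9287, 7461 and 10563 in the 4 CMV-siRE libraries and 3358, 4218, 4009 and 5401 in the 4 CMV-GE11-siRE libraries, against 1832, 2249, 2613 and 2252 with CMV-scrR. The 3 groups did not overlap, and the difference was -1.02 ± 0.16 (limma adjusted p = 0.0339), which passed in 4 of the 12 fits that left out a library.

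The acute phase and serum amyloid list had 15 members, all tested. Of these, 2 were lower with CMV-GE11-siRE, Saa3 and Serpina3n, against 0.0186% of all genes tested, and none was higher. All 15 differences were below 0, with a median of -1.02, and 6 had an unadjusted p under 0.05, against 4.81% of all genes for that direction. The median was -0.55 with CPM scaling and -0.68 without CMV-siRE replicate 3, when 13 were below 0, and 10 had an unadjusted p under 0.05 without CMV-GE11-siRE replicate 4. Saa1 and Saa2, near copies of each other, gave -2.39 ± 0.74 and -1.62 ± 0.83 and did not pass (limma adjusted p = 0.387 and 0.541). Saa1 was at 36.8, 62.2, 98.8 and 24.1 in the 4 CMV-siRE libraries and 6.76, 8.05, 1.96 and 36.8 in the 4 CMV-GE11-siRE libraries, so the CMV-GE11-siRE replicate 4 value reached into the CMV-siRE range. Hp, haptoglobin, which binds free haemoglobin, was at -0.21 ± 0.17 and Cp, ceruloplasmin, at -0.54 ± 0.15, neither past the threshold. Transcripts made mainly by liver, such as albumin, had a list median of -0.81, and none of the 15 tested passed. That median was -0.31 with CPM scaling and its larger offset. Over the fits without 1 library it ran from -1.28, without CMV-GE11-siRE replicate 4, to -0.36, without CMV-GE11-siRE replicate 1. Alb was at 196, 219.7, 413 and 121 in the 4 CMV-siRE libraries and 69.9, 221, 81.9 and 499 in the 4 CMV-GE11-siRE libraries, with the highest value in CMV-GE11-siRE replicate 4.

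With only 3 lower genes, the next genes in order of p that separated the groups were C1qb, Slc13a3 and Alpl, none of which passed. C1qb, a chain of complement C1q made by macrophages, was at 1663, 2271, 2056 and 1920.4 in the 4 CMV-siRE libraries and 1363, 931, 1165 and 1033 in the 4 CMV-GE11-siRE libraries, a difference of -0.82 ± 0.14 (limma adjusted p = 0.0748). Slc13a3, a carrier of dicarboxylates, was at 318, 279.9, 346 and 255 in the 4 CMV-siRE libraries and 135, 179, 117 and 172 in the 4 CMV-GE11-siRE libraries, and its difference was -0.998 ± 0.18 (limma adjusted p = 0.0908). Alpl, the tissue-nonspecific alkaline phosphatase, was at 308, 215, 204 and 265 in the 4 CMV-siRE libraries and 129, 86.8, 108 and 116 in the 4 CMV-GE11-siRE libraries, and its difference was -1.16 ± 0.21 (limma adjusted p = 0.122). In each of these, the 4 CMV-siRE libraries lay above the 4 CMV-GE11-siRE libraries and above the 4 CMV-scrR libraries.

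Neutrophil genes were lower in value with CMV-GE11-siRE throughout their list, but none passed the threshold. The list had 14 members, all tested, and in limma 0 passed while 14 had an unadjusted p under 0.05 in the lower direction, against 4.81% of all genes. In 9 of the 14, all 4 CMV-GE11-siRE libraries lay below all 4 CMV-siRE libraries, against 2.75% of all genes. The median difference was -1.83. S100a9, which with S100a8 forms calprotectin, the main cytosolic protein of neutrophils, was at 1462, 7455, 3044 and 3338 in the 4 CMV-siRE libraries and 352, 918, 619.5 and 761 in the 4 CMV-GE11-siRE libraries, against 3759, 468, 1108 and 908 with CMV-scrR. Its difference was -2.37 ± 0.56 (limma adjusted p = 0.257). Lcn2, an iron-binding protein of neutrophil granules that epithelium also makes and that is a member of the acute phase list as well, was at 3132, 4092, 12836 and 3350.0 in the 4 CMV-siRE libraries and 1366, 1259.7, 1314 and 2526 in the 4 CMV-GE11-siRE libraries, with a difference of -1.65 ± 0.36 (limma adjusted p = 0.207).

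The remaining neutrophil genes named here were picked after their values were seen. Ly6g, a surface protein that marks mouse neutrophils, was at 24.4, 167, 73 and 109 in the 4 CMV-siRE libraries and 7.39, 12.4, 2.8 and 5.89 in the 4 CMV-GE11-siRE libraries, against 89.2, 0.991, 26 and 6.32 with CMV-scrR. Its difference of -3.38 ± 0.94 was the lowest of the list (limma adjusted p = 0.327). Cxcr2, the receptor that draws neutrophils to chemokines, was at 320.4 to 654 in CMV-siRE libraries and 133 to 279 in CMV-GE11-siRE libraries, and Csf3r, the receptor for granulocyte colony-stimulating factor, at 1479.9 to 2416 and 903 to 1472. The CMV-siRE libraries themselves were uneven, with CMV-siRE replicate 1 lowest and replicate 2 highest in S100a8, S100a9 and Ly6g. Among the controls, CMV-scrR replicate 1 had more of these 3 genes than any CMV-GE11-siRE library. The summed level of the list was 8445 to 25232 with CMV-siRE, 3831 to 5623 with CMV-GE11-siRE and 4606 to 15654 with CMV-scrR. Il1b and Il1r2, an inflammatory cytokine and its decoy receptor, both made by neutrophils among other cells, gave -1.31 ± 0.35 and -1.61 ± 0.54 without passing (limma adjusted p = 0.323 and 0.404), with no overlap of the groups.

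Macrophage genes were lower in value by less. Of 14 members, all tested, 0 passed in limma and 7 had an unadjusted p under 0.05 in the lower direction, against 4.81% of all genes, and the median difference was -0.46. The 7 became 4 when CMV-siRE replicate 3 was left out, and also when CMV-GE11-siRE replicate 2 was. Adgre1, the F4/80 antigen of tissue macrophages, was at 1392, 1587, 1569 and 1452 in the 4 CMV-siRE libraries and 1164, 677, 676 and 953 in the 4 CMV-GE11-siRE libraries, a difference of -0.83 ± 0.16 (limma adjusted p = 0.165) with no overlap. C1qa and C1qc, the partners of C1qb in complement C1q, gave -0.62 ± 0.14 and -0.67 ± 0.15. Without CMV-GE11-siRE replicate 1, which held the highest CMV-GE11-siRE value of Adgre1, C1qb and C1qc, these 3 passed. Chil3, a secreted protein of alveolar macrophages, and Csf1r, the receptor for their growth factor, had differences of -0.57 ± 0.24 and -0.36 ± 0.19 that did not pass. Mertk, which takes up dying cells, was at 0.038. Whether the share of these cells in the tissue has a part in the differences of Saa3 and Serpina3n was not tested. The summed level of the macrophage list was 25576 to 37772 in CMV-siRE libraries and 19354 to 24833 in CMV-GE11-siRE libraries, and that of the neutrophil list did not overlap between these groups either.

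**Figure D3:**
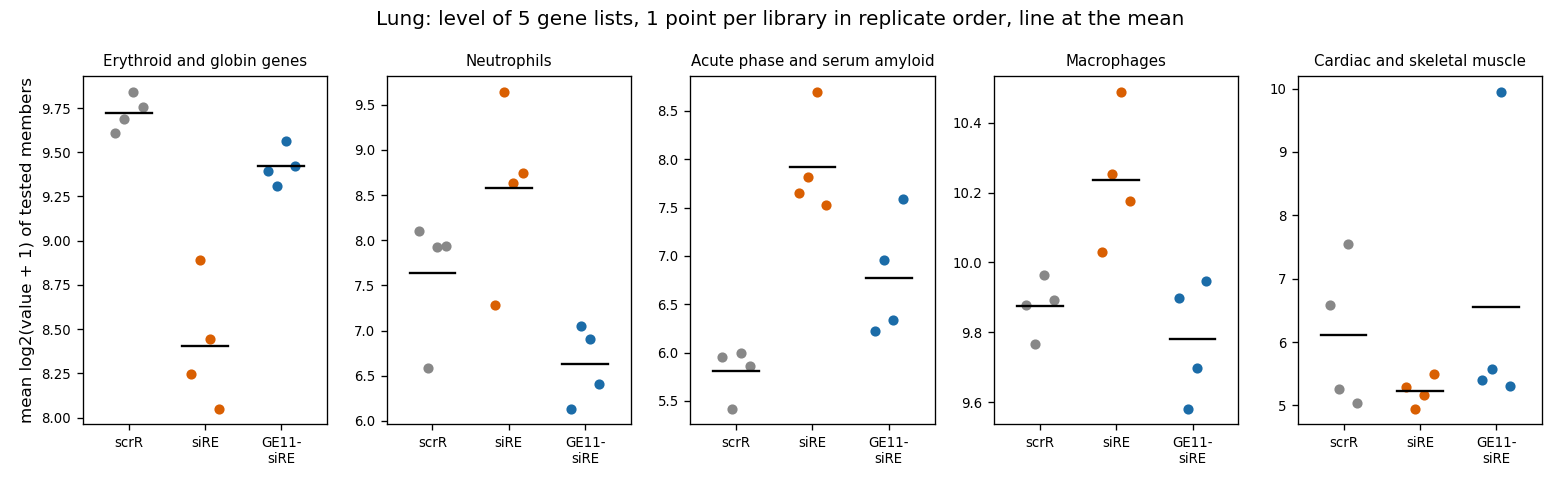
Mean log2(normalized value + 1) over the tested members of 5 gene lists in lung (y axis), with 1 point per library, 4 for each circuit on the x axis, and a line at the mean. In the erythroid panel the CMV-siRE libraries lie lowest, and in the neutrophil and macrophage panels they lie above the CMV-GE11-siRE libraries. In the muscle panel CMV-GE11-siRE replicate 3 lies highest at 9.95, followed by CMV-scrR replicate 3 at 7.55 and CMV-scrR replicate 1 at 6.59.

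Cxcl13, a chemokine that attracts B cells, showed how 1 library bore on the count of genes and was picked after its values were seen. It was at 609, 517, 538 and 518 in the 4 CMV-siRE libraries and 158, 140.1, 103 and 560.4 in the 4 CMV-GE11-siRE libraries, against 55.1, 73.2, 57 and 74.3 with CMV-scrR. The CMV-GE11-siRE replicate 4 value lay among the CMV-siRE values and the other 3 CMV-GE11-siRE libraries lay between the CMV-siRE and CMV-scrR ranges. The difference was -1.52 ± 0.38 and did not pass (limma adjusted p = 0.296). Without CMV-GE11-siRE replicate 4 it was -2.04 with an adjusted p of 0.000756. Of 17 chemokine genes tested, 0 passed in limma with all libraries, 5 had an unadjusted p under 0.05 in the lower direction, against 4.81% of all genes, and the median was -0.12. Over the fits without 1 library the 5 ranged from 2 (when CMV-GE11-siRE replicate 1 was left out, and when CMV-siRE replicate 3 was) to 7, and the median from -0.28 to 0.049.

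The EGFR pathway was described by its receptors and ligands and by the genes that the MAPK cascade below it switches on. Of 12 tested members of the EGFR family and ligand list, 0 passed in limma, 2 had an unadjusted p under 0.05, both higher, against 5.17% of all genes in that direction, and the median was 0.15. The 2 became 1 when CMV-GE11-siRE replicate 1 was left out, and when either of CMV-siRE replicates 2 and 4 was, and the median ranged from 0.075 to 0.24. The 2 were the partner receptors Erbb2, at 0.32 ± 0.10, and Erbb3, at 0.28 ± 0.13 (limma adjusted p = 0.404 and 0.484). Erbb2 was at 1001, 987, 928 and 991 in the 4 CMV-siRE libraries and 1419.6, 1075, 1328 and 1087 in the 4 CMV-GE11-siRE libraries, without overlap. Errfi1, an inhibitor that EGFR signalling induces, was at 0.073 ± 0.25. The ligand amphiregulin, Areg, was at 119, 96.9, 74.8 and 248 in the 4 CMV-siRE libraries and 73.7, 46, 39.4 and 210.4 in the 4 CMV-GE11-siRE libraries, so its libraries spread more within a group than between groups.

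Of 16 tested members of the MAPK and EGFR feedback list, 0 passed in limma and 3 had an unadjusted p under 0.05, against 9.97% of all genes in either direction, with a median of -0.017 that changed sign between fits without 1 library. Ccnd1, the cyclin that carries cells into division, was at -0.25 ± 0.13 and Etv5, a factor induced by ERK, at 0.17 ± 0.16. The 3 with a low unadjusted p, picked after their values were seen, did not share a direction. Dusp4, a phosphatase that switches off ERK, was at 239, 202, 283 and 242 in the 4 CMV-siRE libraries and 428, 335, 440.4 and 342 in the 4 CMV-GE11-siRE libraries, a difference of 0.67 ± 0.14 (limma adjusted p = 0.175) without overlap. Spred2, an inhibitor of the step from RAS to RAF, was at 0.41 ± 0.13, and Spry4, another feedback inhibitor, at -0.31 ± 0.14. Of 28 tested genes of the cell cycle list 0 passed and 0 had an unadjusted p under 0.05, with a median of -0.012.

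No interferon gene passed between the 2 circuits. Of 23 type I interferon genes tested, 0 passed in limma and 0 had an unadjusted p under 0.05, with a median of -0.046. Oasl2, a member of the oligoadenylate synthetase family of antiviral genes, was at 2062, 2031, 2388 and 2266 in the 4 CMV-siRE libraries and 2019, 2068, 2213 and 2854 in the 4 CMV-GE11-siRE libraries, against 10184, 3375, 6338 and 3588 with CMV-scrR. Its difference was 0.055 ± 0.27. Of 20 interferon-inducible GTPase and gamma response genes, 0 passed and 0 had an unadjusted p under 0.05, while 19 had a difference above 0, with a median of 0.31. In 5 of the 20 all CMV-GE11-siRE libraries lay above all CMV-siRE libraries, against 2.41% of all genes. The summed level of this list was 24488 to 31526 with CMV-siRE, 32070 to 36505 with CMV-GE11-siRE and 50478 to 141849 with CMV-scrR. The spread behind the limma p-values is shared by the 3 groups and takes in the uneven CMV-scrR libraries. Igtp, a GTPase that acts on the vacuoles of parasites, was at 1577, 1304, 1608 and 1619.6 in the 4 CMV-siRE libraries and 1749, 2279, 1944 and 2012 in the 4 CMV-GE11-siRE libraries, against 10414, 4456, 10780.2 and 3434 with CMV-scrR, and Gbp4 was at 0.082 ± 0.27. Against CMV-scrR, the medians of the GTPase list were -1.67 for CMV-siRE and -1.36 for CMV-GE11-siRE, values that share their control libraries.

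Genes that handle small RNAs and vesicles were examined because the circuits rely on them. Of 15 small RNA genes 0 passed in limma and 5 had an unadjusted p under 0.05, all higher, against 5.17% of all genes in that direction, with a median of 0.19. The 5 rested on single libraries: the count was 0 when CMV-GE11-siRE replicate 1 was left out and when CMV-siRE replicate 2 was, with a median of 0.084 in the latter case, and 1 when CMV-GE11-siRE replicate 3 was and when CMV-siRE replicate 4 was. Sidt2, a lysosomal protein that carries RNA, was at 0.31 ± 0.12 (limma adjusted p = 0.45), Ago1, a member of the silencing complex, at 0.29 ± 0.13, and Dicer1, which cuts the precursors, at 0.24 ± 0.11. Of 16 vesicle genes 0 passed and 2 had an unadjusted p under 0.05, both lower, against 4.81% of all genes in that direction, with a median of -0.058. Among 20 ribosomal protein genes 0 passed and 7 had an unadjusted p under 0.05, all lower, against the same 4.81%, with a median of -0.20 and Rplp0 at -0.20 ± 0.12. CMV-siRE replicate 2 stood above the other CMV-siRE libraries in the mean log2 level of this list, at 13.2 against 12.7 to 12.8, and without it 1 had an unadjusted p under 0.05 and the median was -0.091. The 7 ranged from 1, also when CMV-GE11-siRE replicate 3 was left out, to 10, when CMV-siRE replicate 1 was. Among 15 genes of the unfolded protein response 0 passed and 7 had an unadjusted p under 0.05, all lower, again against 4.81%, with a median of -0.17 (from -0.33 to -0.067 with 1 library left out) and the chaperones Hsp90b1 and Calr at -0.30 ± 0.11 and -0.28 ± 0.10.

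Of the epithelial lists none had a member past the threshold. Alveolar type 2 genes had a median of -0.074 over 16 genes and alveolar type 1 genes 0.099 over 13, and with 1 library left out these ranged from -0.16 to -0.02 and from -0.019 to 0.20. All 14 ciliated cell genes had a difference below 0, with a median of -0.21 and 1 at an unadjusted p under 0.05, against 4.81% of all genes in that direction. Heart and skeletal muscle genes had a median of 0.93 over 10 tested, which rested on CMV-GE11-siRE replicate 3 and was -0.0082 without it: Actc1, cardiac actin, was at 542, 481, 436 and 567 in the 4 CMV-siRE libraries and 489.6, 387, 4626 and 573 in the 4 CMV-GE11-siRE libraries. Of the 44 lists, 42 had no member past the threshold.

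**Figure D4:**
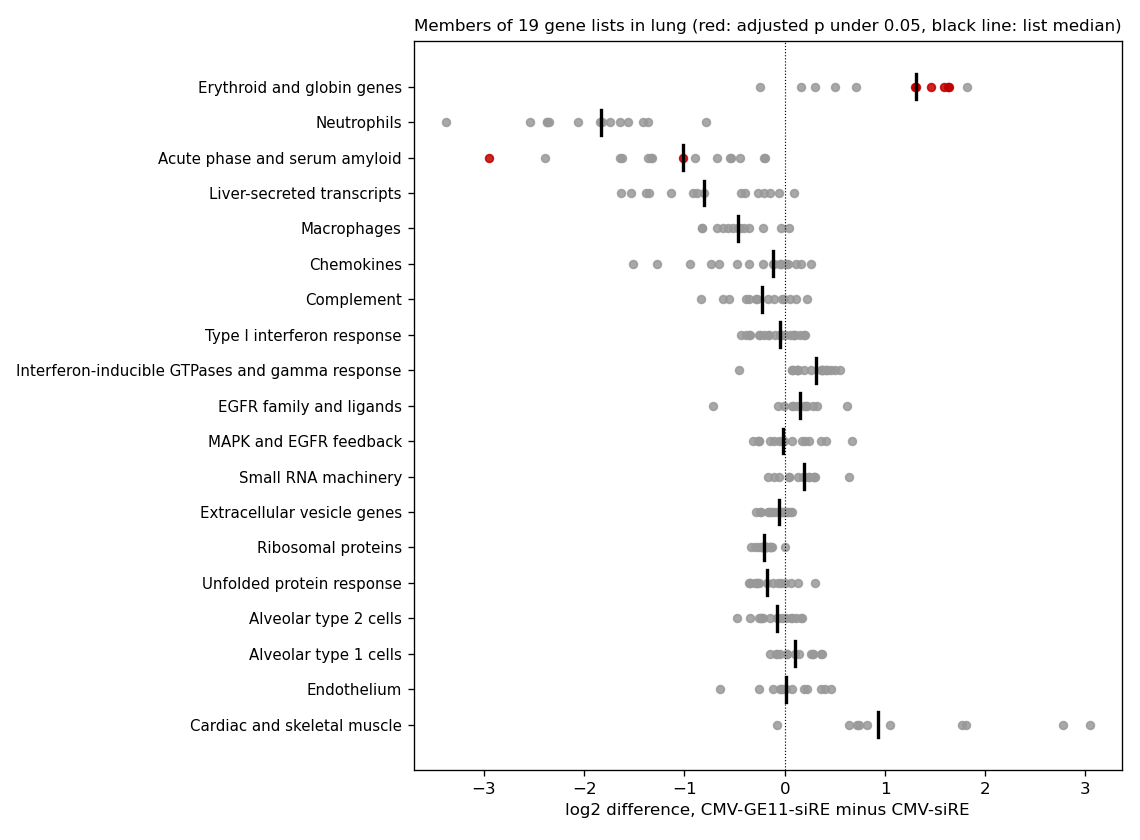
The log2 difference, CMV-GE11-siRE minus CMV-siRE, of each tested member (point) of 19 of the 44 gene lists in lung, with the list median as a black line and members with an adjusted p under 0.05 in red. Red points occur only in the erythroid list, all above 0, and in the acute phase list, both below 0. All neutrophil genes lie below 0.

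The control circuit places these differences. Against CMV-scrR, 228 genes (1.41%) passed for CMV-siRE and 0 (0%) for CMV-GE11-siRE, where 1277 genes had an unadjusted p under 0.05 in limma. The comparisons share libraries, so the values are given side by side. Hbb-bt was at -1.97 ± 0.17 in CMV-siRE libraries and -0.33 ± 0.17 in CMV-GE11-siRE libraries against CMV-scrR (log2, SE). Alas2 was at -1.98 and -0.35 and Apln at -0.85 and -0.11. Saa3 was at 3.89 and 0.94 and Serpina3n at 1.93 and 0.91. For each of the 10 genes the CMV-siRE value against the control passed in limma and the CMV-GE11-siRE value did not. In CMV-GE11-siRE, the interval around Saa3 against the control had an SE of 0.35, so a miss of the threshold does not show that it equals the control.

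The same genes were read in the other 5 tissues, each fitted on its own table and with no test between tissues. In spleen, the main blood-forming organ outside the marrow in mice, 18 of 16015 genes (0.112%) differed between CMV-GE11-siRE and CMV-siRE, and the 4 globin genes and Alas2 were among those that passed. Hbb-bt in spleen was at 26662, 18532, 9529.7 and 16006 in CMV-siRE libraries and 42700.5, 87387, 62569 and 44709.5 in CMV-GE11-siRE libraries, a difference of 1.78 ± 0.28 (log2, SE; limma adjusted p = 0.0212). Alas2 gave 1.92 ± 0.25 (limma adjusted p = 0.00854). In spleen, as in lung, no CMV-siRE library overlapped a CMV-GE11-siRE library for these 5 genes. Saa3 in spleen was at 103 to 565 in CMV-siRE libraries and 37.3 to 80.3 in CMV-GE11-siRE libraries, a difference of -2.21 ± 0.48 that did not pass (limma adjusted p = 0.129).

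In liver 1 of 14484 genes (0.0069%) passed, and none of the lung genes did. Hbb-bt in liver was at 121, 117, 89.1 and 108 in CMV-siRE libraries and 179, 434, 291 and 1085 in CMV-GE11-siRE libraries, without overlap, and the difference was 1.87 ± 0.41 (limma adjusted p = 0.297). Alas2 in liver, in contrast to the globin genes, was at -0.20 ± 0.20 with overlapping libraries. Saa3 in liver was at 14704, 18360.1, 17527 and 16074 in CMV-siRE libraries and 8232, 9779, 8954 and 13240.3 in CMV-GE11-siRE libraries, against 91.5 to 344 with CMV-scrR. The CMV-GE11-siRE libraries lay below the CMV-siRE libraries, by -0.75 ± 0.35 (limma adjusted p = 0.652), and both circuits lay far above the control. Serpina3n in liver was at -0.27 ± 0.13, with overlap.

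**Figure D5:**
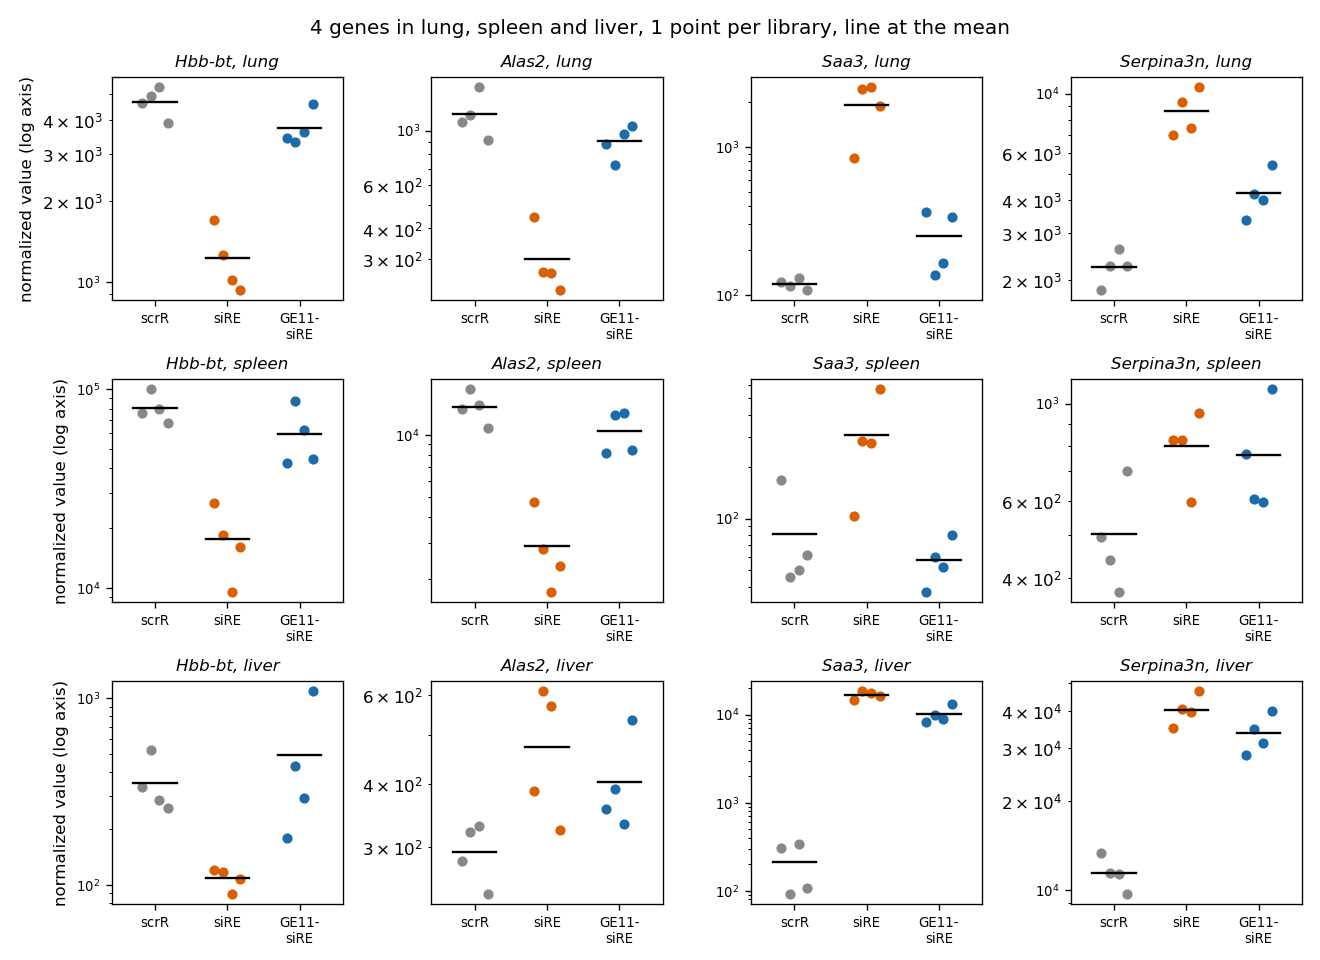
Normalized values on log axes of Hbb-bt, Alas2, Saa3 and Serpina3n (columns) in lung, spleen and liver (rows), with 1 point per library, 4 for each circuit on the x axis, and a line at the mean. The tables of the tissues were normalized separately, so levels are compared within a panel. Hbb-bt with CMV-siRE lies below both other circuits in each of the 3 tissues, and Saa3 with CMV-GE11-siRE lies below CMV-siRE in all 3, far above the control in liver and overlapping it in spleen.

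In kidney 0 of 15105 genes (0%) and in thymus 0 of 16421 genes (0%) passed in limma, where 599 and 461 genes had an unadjusted p under 0.05. CMV-GE11-siRE replicate 4 stood apart in both organs for some genes, as single CMV-siRE libraries did for others. Leaving out CMV-GE11-siRE replicate 4 was chosen after seeing the data, and no other library was left out in these organs. Without CMV-GE11-siRE replicate 4, 1919 and 2945 genes had an unadjusted p under 0.05, with 0 and 1 past the threshold. Hbb-bt in kidney was at 885, 343, 367 and 252 in CMV-siRE libraries and 1414, 789, 1139 and 139 in CMV-GE11-siRE libraries, with overlap, a difference of 0.66 ± 0.61, and of 1.4 without that library (limma adjusted p = 0.278). In thymus Hbb-bt was at 16.2 to 217 and 39.9 to 206, and the difference was 0.37 ± 0.68, or 0.60 without replicate 4. In the lung tumours 3 of 14044 genes (0.0214%) passed, none of them among the 10, and 3677 (26.2%) had an unadjusted p under 0.05 in limma. The 4 globin genes and Alas2 had differences below 0 in tumours, with overlapping libraries and wide SE. Hbb-bt was at -0.44 ± 1.38 and Alas2 at -0.50 ± 1.63. Apln in tumours was lower in value with CMV-GE11-siRE, at 16.6 to 101 against 110.1 to 254 with CMV-siRE, a difference of -1.79 ± 0.46 (limma adjusted p = 0.0699), opposite in sign to lung.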

How the data were processed

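RNA sequencing libraries of total RNA were made with a TruSeq kit after TRIzol extraction, per the labels' protocols. The authors deposited 1 table of signal values per tissue. DESeq2 is named without a version or role, per the submitters' processing notes, with aligner, counting tool, build and annotation not given in the sources used here. The values are fractional. Of lung values from 20 to 200, only 2.8% to 20.4% in a library were whole multiples (within 0.02) of its most frequent value near 1, so reads were not recovered and limma was used in place of a count model. Of 36047 gene identifiers, 35968 matched GENCODE M21, the source of names and GRCm38 positions.

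Genes that reached 10 in 4 or more of the 12 lung libraries were tested on log2(value + 1) with limma-trend (limma 3.58.1, R 4.3.3), with 1 mean per circuit. A pseudocount understates the change of low genes. Benjamini-Hochberg adjustment ran over all genes tested, with a threshold of 0.05. The fit and the permutation test were tested on simulated data. Named genes passed, had a mean of at least 1 CPM and separated the groups, up to 12 each way; a direction with fewer than 6 was filled to 6 by unadjusted p. Up to 4 passing members of each list, or its 2 highest, could be named, and some genes are not reported here. The comparison and the lists were chosen with earlier results of these data known. Alternatives were a pseudocount of 0.1, no filter, only the 8 libraries, a replicate block, CPM scaling and each library left out. CPM scaling used log2(CPM + 1), so its added 1 is larger beside low values than in the main fit. No 2 libraries held the same values, with correlations within a group between 0.961 and 0.983.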

Additional observations from a re-analysis of the deposited data

Results flagged for a closer look

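Within groups of 4, a single library lay far from the other 3 for several of the genes and lists examined, judged on the log2 scale by Dixon's test. Chance alone gives such a gap in about 1 in 20 groups. The genes of the text and all 44 lists were screened in both circuits, so several such gaps arise by chance. Whether those found exceed that number was not tested. CMV-GE11-siRE replicate 3 was high in Myh6 (6177) and Actc1 (4626), in the muscle list (mean log2 level 9.95) and in the smooth muscle and pericyte list (10.8). CMV-GE11-siRE replicate 4 was high in Lcn2 (2526) and Wfdc17 (183), and low in Epor (71.4), in H2-K1, an MHC class I gene (33799), and in the mean log2 level of the B and plasma cell list (8.19). In CMV-siRE, replicate 4 was low in Tfrc (1277), replicate 1 was low in Il1b (380.0), and replicate 2 was low in Igtp (1304) and Cdh5 (16949).

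The difference in Apln had opposite signs in lung, where it passed, and in tumour, where it did not. All 4 CMV-GE11-siRE libraries lay above all 4 CMV-siRE libraries in lung and below them in tumour, where the difference was -1.79 (limma adjusted p = 0.0699). In tumour, 26.2% of genes tested had an unadjusted p under 0.05 in limma, and the share without overlap was not counted. The difference between the tissues was not tested.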

How the results depend on the processing

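Hbb-bt, Hbb-bs, Hba-a1, Hba-a2, Alas2, Apln and Saa3 stayed past the threshold under all 17 alternatives, with adjusted p up to 0.0476 for Apln. Serpina3n passed in 8 of the 17, with the same direction in all. Over the fits that left out 1 library, the count of genes ran from 8 to 19, the higher count from 7 to 13 and the lower count from 1 to 6. The largest values came without CMV-GE11-siRE replicate 4, and a lower count of 1 came when any of 6 libraries was left out (CMV-scrR 2, CMV-siRE 2 to 4, CMV-GE11-siRE 2 and 3). Erythroid list members higher stayed at 6 throughout. With the replicate block 9 genes passed, 7 higher and 2 lower. Libraries that share a replicate number correlated by -0.043, -0.027, 0.087 and 0.076 in their deviations, so the numbers were not taken as pairs. The Egfr difference ran from 0.086 to 0.292 over the fits without a library and was 0.19 and 0.18 with a pseudocount of 0.1 and CPM scaling, never past the threshold. Leaving out CMV-GE11-siRE replicate 4 in kidney and thymus was chosen after seeing the data. Read depth is not known from the normalized values, so no counting interval is given.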

Other observations

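Of the lists not described above, none had a member past the threshold in limma. Complement genes had 11 of 14 differences below 0, with a median of -0.22 (from -0.34 to -0.074 with 1 library left out) and 4 at an unadjusted p under 0.05, all lower, against 4.81% of all genes in that direction. Genes of T, NK and cytotoxic cells had 13 of 16 differences above 0, a median of 0.26 and 0 at an unadjusted p under 0.05. B and plasma cell genes had a median of 0.20 over 16 genes and dendritic and mast cell genes 0.16 over 11. With 1 library left out, the medians ranged from -0.03 to 0.54 for the T, NK and cytotoxic list, from -0.13 to 0.45 for the B and plasma cell list and from 0.047 to 0.36 for the dendritic and mast cell list. Circadian clock genes had a median of 0.12, with 3 of 17 at an unadjusted p under 0.05, all higher, against 5.17% of all genes, and 1 when CMV-GE11-siRE replicate 4 was left out and when CMV-siRE replicate 2 was. Chaperones of the heat shock response had 11 of 12 differences below 0 and a median of -0.17. The medians of p53 targets, immediate early genes and MHC class I genes were -0.043, 0.0059 and 0.01.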
